A study of Mus musculus with 20 samples.

Results

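Single mouse bone marrow cells of the stem cell gate, which lacks lineage markers and CD48 and carries cKit and CD150 (9 CD150+CD48- cells), were split by how many of their reads were of platelet genes. The 3 cells with the largest share are compared here with the other 6, gene by gene. They were chosen by the share of 10 ranking genes, Vwf, Itga2b, Itgb3, Rab27b, Cd9, Pf4, Plek, Clu, F2r and Selp, in all raw gene reads of a cell, so those values are given as a description only. The 3 cells, named by the codes in their titles, were A8, B4 and A10 (the ranked cells). They are 3 of 20 cells in the series. The remaining 11 came from a gate without lineage markers and CD150, again with cKit and with no CD48 gate named (CD150- cells), and serve here as side values. All 20 came from bone marrow of the mouse strain C57BL/6J. The labels name no treatment, age, sex or animal, and each library was 1 cell, made with Quartz-Seq, a method that copies and PCR-amplifies the polyadenylated RNA of a single cell. Because the split was made from the reads and cells are not replicates, every value below is a description, with no test.

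Blood stem cells sit at the top of a hierarchy that ends in platelets, red cells and white cells. Platelets are shed by megakaryocytes, and part of the stem cell pool already carries transcripts of that lineage, von Willebrand factor among them. Such cells are called platelet-primed or platelet-biased. CD150, the product of Slamf1, and the absence of CD48 are used to enrich stem cells, and CD150 is also kept on some megakaryocyte progenitors.

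The ranking genes spanned the working parts of a platelet. Vwf (ENSMUSG00000001930, chromosome 6, 125546774 to 125686679, GRCm38) encodes the adhesive glycoprotein stored in platelet granules. Itga2b (ENSMUSG00000034664, chromosome 11, 102453297 to 102470122) and Itgb3 (ENSMUSG00000020689, chromosome 11, 104608000 to 104670476) encode the alpha and beta chains of the fibrinogen receptor, and Rab27b a small GTPase of granule release. Pf4 is a chemokine of the alpha granules, Plek (pleckstrin) a substrate of protein kinase C in platelets, F2r a thrombin receptor, Selp the adhesion molecule P-selectin, Cd9 a tetraspanin and Clu the secreted chaperone clusterin. Promoters of 3 of them are shown because these genes gave the most ranking reads in A8, the cell with the highest share, among those with a promoter entry in RefSeq (6 of the 10 had one). Each run covers 250 bases before to 50 after the RefSeq start on GRCm38.p6, 5′ to 3′ on the gene's strand. Itga2b is at chr11:102469834-102470133 (minus strand), Pf4 at chr5:90772185-90772484 (plus strand) and Plek at chr11:17008669-17008968 (minus strand). Capitals mark GATAA and GGAAG, core letters bound by GATA and ETS family factors, on either strand (TTATC and CTTCC on the other).
Itga2b: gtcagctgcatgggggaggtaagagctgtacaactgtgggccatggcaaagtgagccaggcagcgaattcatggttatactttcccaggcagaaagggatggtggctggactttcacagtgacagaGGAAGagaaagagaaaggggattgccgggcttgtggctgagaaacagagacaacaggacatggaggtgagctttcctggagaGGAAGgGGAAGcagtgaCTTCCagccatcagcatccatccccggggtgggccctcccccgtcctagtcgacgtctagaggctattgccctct
Pf4: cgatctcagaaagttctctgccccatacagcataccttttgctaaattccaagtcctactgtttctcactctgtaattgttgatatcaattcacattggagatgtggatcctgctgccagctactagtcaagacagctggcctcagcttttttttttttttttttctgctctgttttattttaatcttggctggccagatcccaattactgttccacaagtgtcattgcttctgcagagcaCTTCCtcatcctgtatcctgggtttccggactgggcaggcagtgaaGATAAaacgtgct
Plek: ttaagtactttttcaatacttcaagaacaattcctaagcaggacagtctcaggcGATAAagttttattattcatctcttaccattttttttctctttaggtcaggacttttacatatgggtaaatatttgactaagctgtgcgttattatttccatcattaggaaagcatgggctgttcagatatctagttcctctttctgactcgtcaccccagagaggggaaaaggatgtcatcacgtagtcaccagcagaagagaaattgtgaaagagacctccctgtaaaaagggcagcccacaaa
GGAAG had 4 matches in the Itga2b window and 1 in that of Pf4, and GATAA had 1 in that of Pf4 and 1 in that of Plek. Over the 6 ranking promoters GGAAG was in 4 and GATAA in 2, beside 71.4% and 25.4% of all 32851 promoters of this length. These matches describe the letters only.

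By the rule, A8 had 0.400% of its gene reads in the ranking genes (5001 reads, 8 of 10 genes read), B4 0.383% (2797 reads, 10 of 10) and A10 0.161% (1063 reads, 6 of 10). The nearest cell outside was B3 with 0.141%, and the ratio of A10 to B3 was 1.14. The remaining 5 cells lay at 0.0476% or below, and the CD150- cells between 0 and 0.101%. So A8 and B4 stood far from the rest, while A10 and B3 were neighbours. With Vwf or Rab27b left out of the ranking, B3 took the place of A10. With any 1 of the other 8 left out, the same 3 cells ranked highest. With the genes weighted equally, by summed log2(CPM + 1), B11 ranked between A8 and A10.

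**Figure D1:**
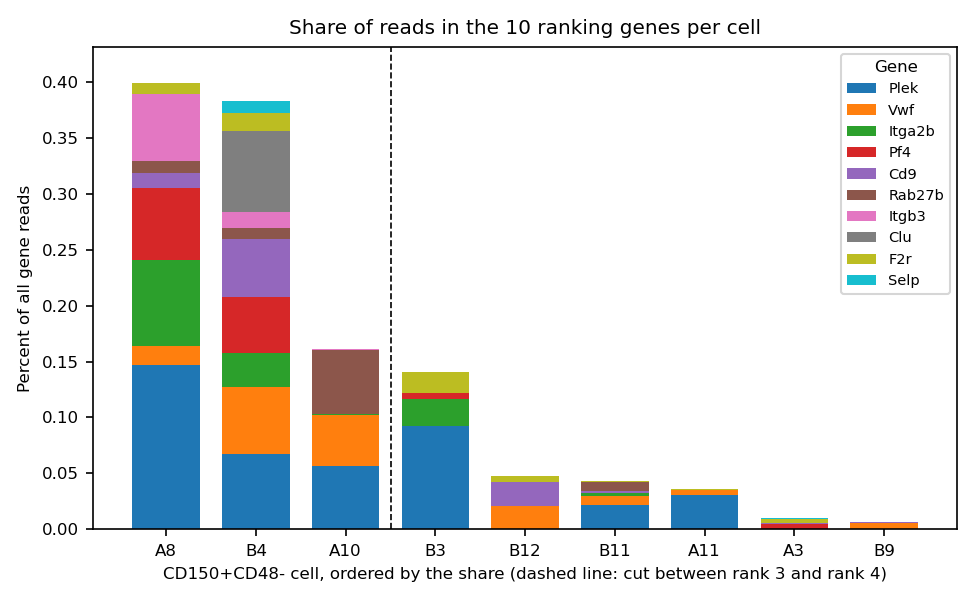
Percent of all gene reads (y axis) in each of the 10 ranking genes, stacked, for the 9 CD150+CD48- cells ordered by their share (x axis). The 3 ranked cells are left of the dashed line, and A10 at 0.161% lies close to B3 at 0.141%.

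The genes that made up the share differed from cell to cell. Counted as raw reads, with no correction for gene length, A8 had most in Plek (1833), Itga2b (968), Pf4 (802) and Itgb3 (743), with 216 of Vwf, 171 of Cd9, 136 of Rab27b and 132 of F2r. B4 had them spread over all 10 genes, with 527 reads of Clu, 488 of Plek, 438 of Vwf, 377 of Cd9 and 368 of Pf4. A10 had nearly all in 3 genes, Rab27b (378), Plek (374) and Vwf (302), with 5 reads of Itgb3, 3 of Itga2b and none of Pf4. The 4 genes Vwf, Itga2b, Itgb3 and Rab27b were all read in each of the ranked cells, and no cell of the other 6 had reads of all 4. Itgb3 had no read in the other 6 cells, and B11 had reads of the other three. B3 had 1976 reads of Plek, 497 of Itga2b, 397 of F2r and 124 of Pf4, but none of Vwf or Rab27b. These values chose the cells and are no finding.

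Library measures moved with the split. Gene reads were 1250973 in A8, 730221 in B4 and 660007 in A10, against 845194 to 3722713 in the other 6 cells. Unaligned reads were 35.7%, 46.3% and 80.2%, against 8.17 to 66.2%. Every cell was therefore thinned to 660007 gene reads, at which 1 read is 1.52 CPM (reads scaled to a total of 1000000 gene reads). At that depth 7620, 4758 and 5126 genes were read in A8, B4 and A10, against 5057 to 8693. Gene reads per read of the ERCC spike-ins, RNA of known amount added to the lysis buffer, were 91.1, 43.1 and 109, against 22.3 to 93.5. The part of these measures in the differences below was not tested. Among the genes of the gate, Kit was read in all 9 cells, at 168 CPM in A8, 755 in B4 and 568 in A10. Slamf1 was read in A8 (1 thinned read), B11 and B12 only. Cd48 was read in B3 alone, at 244 CPM, although that cell had been sorted as CD48-negative.

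**Figure D2:**
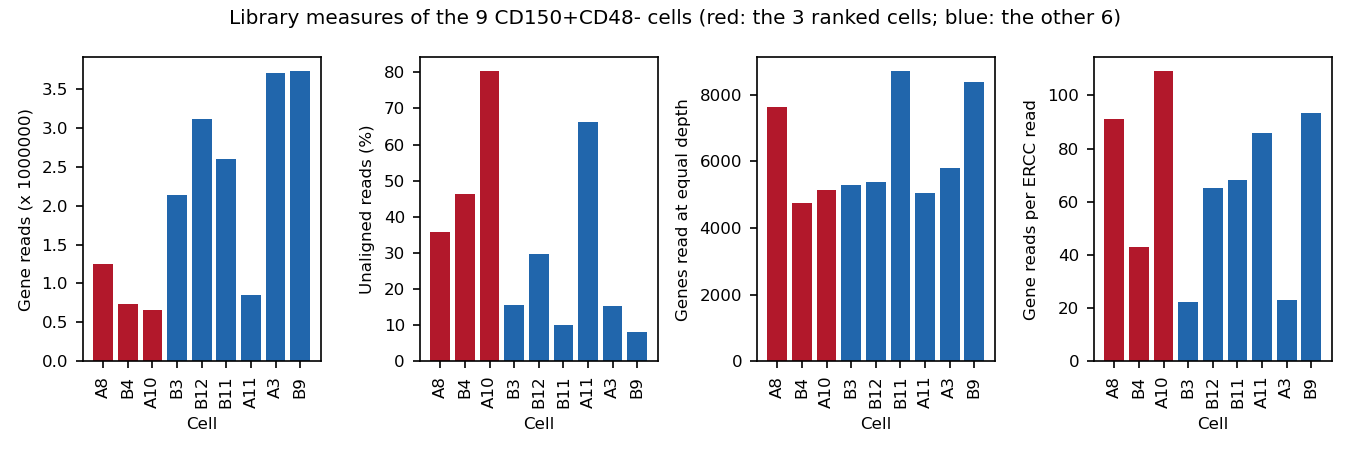
Gene reads, percent of unaligned reads, genes read at equal depth and gene reads per ERCC read (y axes, 4 panels) for each of the 9 cells (x axis, ordered by the ranking share; red bars are the 3 ranked cells). The ranked cells had between 660007 and 1250973 gene reads, fewer than 5 of the other 6 cells.

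Outside the ranking, the summed share of platelet-lineage genes overlapped between the 3 cells and the other 6. A list of 40 further genes of megakaryocytes and platelets held 0.965% of gene reads in A8, 0.554% in B4 and 0.640% in A10, against 0.335 to 0.859% (median 0.516%) in the other 6 cells. Of its 18 members past the filter for low counts (at least 10 thinned reads over the 9 cells and a read in at least 3), none had all 3 ranked cells above or below all 6 others with at least a 2-fold difference (called apart here). Of all 8318 genes past the filter, 43 (0.517%) were apart in the higher direction and 63 (0.757%) in the lower. At these shares, none of 18 is no result about the members. Their median log2 fold was 0.47, beside -0.39 over all genes. With A8 left out it was -0.84, beside -1.21 over all genes. Log2 folds are of mean thinned CPM with 1 CPM added, ranked over other cells, which understates differences of low genes. Intervals (95% CI) of folds are exact conditional binomial intervals, and they cover counting error of reads only, not the differences between cells.

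The platelet genes of receptors and surface glycoproteins were mostly those of 1 cell, A8. F2rl2, a thrombin receptor, had 1100.0 CPM in A8, and P2ry1, the receptor for ADP, had 908. Neither had a thinned read in the other 8 cells. Treml1, a receptor of platelet granule membranes, had 468 CPM in A8 and 9.09 in B9, and none in the other 7. Gp9, a subunit of the receptor that binds von Willebrand factor, was read in both A8 (242 CPM) and B4 (161), not in A10, and in B3, B11 and B9 at 33.3, 103 and 63.6. A8 had reads of 26 of the 40 genes, against 11 in B4, 14 in A10 and 11 to 18 in the other 6. The thromboxane receptor gene Tbxa2r followed another pattern. It had 203 CPM in A8, 0 in B4 and 215 in A10, and of the other 6 cells only A3 had reads, at 9.09 CPM. Because B4 had none, Tbxa2r was not apart.

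Angpt1, the ligand of the receptor Tek and a gene of both stem cells and megakaryocytes, was high in every cell. It had 1011 CPM in A8, 2518 in B4 and 3345 in A10, against 692 to 3467 (median 1155). The groups overlapped.

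**Figure D3:**
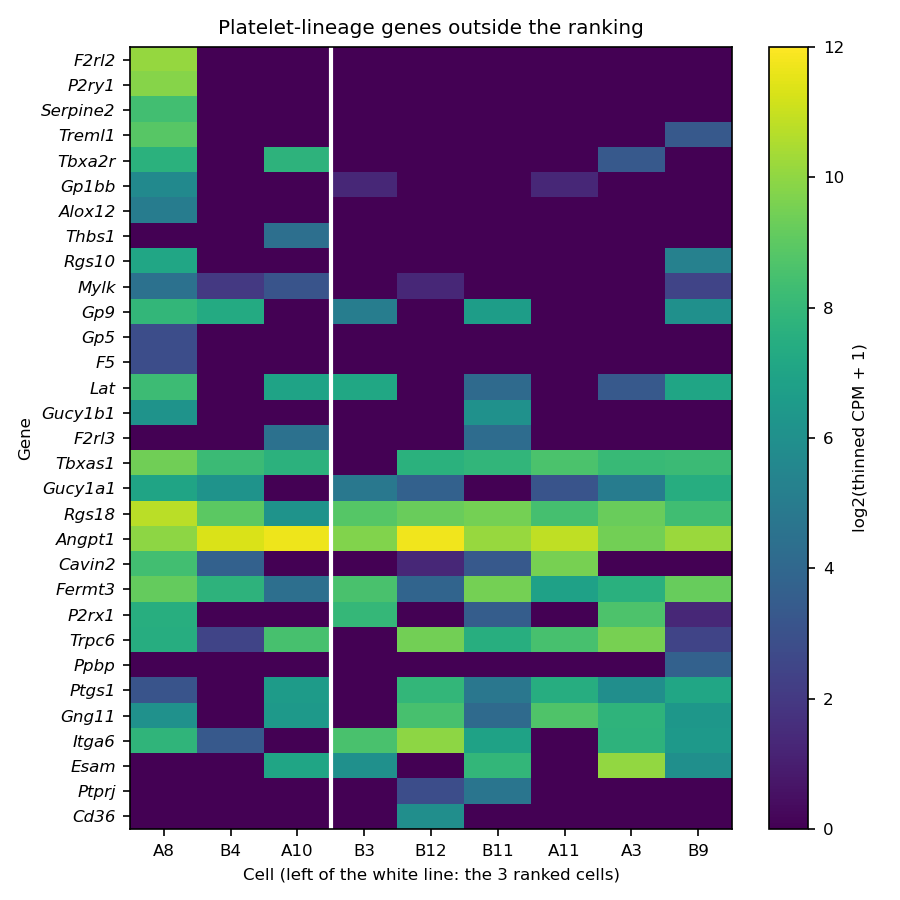
Level of members of the 40-gene platelet-lineage list with a thinned read (rows, ordered by log2 fold) in the 9 cells (columns, ordered by the ranking share), as log2(thinned CPM + 1) in color. F2rl2, P2ry1, Serpine2 and Alox12 are bright in A8 alone, while Angpt1 is bright in all 9 cells.

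Defining markers of other blood cell types differed among the ranked cells. Those of committed megakaryocytes (Gp9, Gp1bb, Gp6, Ppbp, Treml1 and Tubb1) summed to 761 CPM in A8, 161 in B4 and 0 in A10, against 0 to 103 in the other 6. Those of erythroid cells (Klf1, Car1, Ermap and Epor) summed to 314 CPM in B4, where all 4 were read, and to at most 4.55 elsewhere among the 9. Klf1, a transcription factor of red cell development, gave 306 CPM of this, and no other of the 9 cells had a Klf1 read. The other 3 markers were near the floor, Car1 with a mean of 1.52 CPM over the ranked cells. The whole list of 27 erythroid genes held 0.166% of gene reads in A8, 0.0896% in B4 and 0.0647% in A10. It held 0.0539 to 0.346% (median 0.180%) in the other 6, and 0.0831 to 2.75% (median 1.54%) in the CD150- cells. The defining neutrophil and monocyte markers (Mpo, Elane, Prtn3, Ctsg and Csf1r) were at 0 in A8 and B4, at 124 CPM in A10, and at 7.58 to 571 in the other 6.

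Other genes of the lists of these cell types were read in the ranked cells. The list of 26 neutrophil and monocyte genes held 0.0649% of gene reads in A8, 0.149% in B4 and 0.0486% in A10, against 0.0169 to 0.0887% (median 0.0568%) in the other 6 cells, so B4 was the highest of the 9. Most of this in B4 was Lyz2, lysozyme, which had 208 CPM in A8, 1253 in B4 and 22.7 in A10, against 6.06 to 139 (median 34.1). It was not apart, but was with A10 left out, as were 3.36% of all genes in the higher direction. Reads shared with the paralog Lyz1 leave the Lyz2 count uncertain. The defining lymphoid-primed markers (Flt3, Il7r, Dntt and Rag1) were at 0 in the 3 cells, but 5 of 19 genes of that list were read in A8, 5 in B4 and 6 in A10. Il12a, a cytokine subunit, had 86.4 CPM in A8, 661 in B4 and 180.3 in A10, against 0 to 368 (median 111), and Ikzf1, Bcl11a, Cd27 and Ebf1 were also read in all 3. The defining mast cell and basophil markers (Cpa3, Mcpt8, Fcer1a and Ms4a2) were at 0 in the 3 cells, while Gata2, a factor that stem cells also express, had 147 CPM in A8, 171 in B4 and 380.3 in A10, against 80.3 to 1382 (median 227). Of the mature lymphocyte markers (Cd79a, Cd3e and Cd8a) there was 1 read, in B4, and Cd79b from the wider list had 6.06 CPM in A8, 0 in B4 and 186 in A10, against 0 to 641 (median 13.6). Of the endothelial and stromal markers (Cdh5, Kdr, Emcn, Cxcl12 and Col1a1) there was 1 read, in A8. Col1a2, a collagen chain of the wider list, had 358 CPM in B4 and 90.9 in B11 and none in the other 7 cells. The part of these genes in the differences was not tested.

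Stem cell genes were read in all 3 ranked cells, and 1 gene lay below the range of the other 6 in all 3. Of 33 stem cell genes past the filter, 15 had a log2 fold of at most -1 and 3 of at least 1, beside 39.5% and 22.8% of all genes. The 3 were Ctnnal1 (2.99), Tek (2.41) and Prdm16 (1.43). Without B4 the log2 folds of Ctnnal1 and Tek were -2.84 and -0.83. The median of the 33 was -0.82, beside -0.39 over all genes. Of the 33, 1 gene, Mllt3, was apart, beside 0.757% of all genes apart lower. The share of the whole stem cell list was 0.507% of gene reads in A8, 0.900% in B4 and 1.27% in A10, against 0.541 to 1.77% (median 1.23%) in the other 6 cells. Mllt3 (ENSMUSG00000028496, chromosome 4, 87769925 to 88033364), a chromatin reader that maintains stem cells, had 81.8 CPM in A8, 121 in B4 and 139 in A10. It had 148 to 2209 (median 515) CPM in the other 6, all above the 3, so that it was 8.00-fold lower (95% CI 6.99 to 9.19). In the CD150- cells it ranged from 0 to 744 (median 159) CPM, which spans the values of the ranked cells.

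A10 held more of the stem cell genes than A8 and B4. Hlf, which encodes a factor that keeps stem cells quiescent, was at 0 CPM in A8, 0 in B4 and 518 in A10, against 159 to 1097 (median 464) in the other 6. Ifitm1 had 1.52 CPM in A8, 0 in B4 and 1144 in A10, against 285 to 4067 (median 789). So A10 lay within the range of the other 6 for both genes, and A8 and B4 below it. The summed stem cell markers (Mecom, Hlf, Procr, Fgd5, Ly6a and Tek) were 51.5 CPM in A8, 409 in B4 and 670 in A10, against 305 to 1732. Of these markers, Mecom, Hlf, Procr and Ly6a had negative log2 folds, while Tek and Fgd5 had log2 folds of 2.41 and 0.19. Procr, the endothelial protein C receptor, had no read in the 3 ranked cells and reads in 4 of the other 6. Mecom, a transcription factor, had 25.8 CPM in A8, 0 in B4 and 0 in A10, against 1.52 to 1162 (median 103). With A10 left out, 4 of 33 stem cell genes were apart, Hlf, Ifitm1, Mllt3 and Pdzk1ip1, all lower, beside 1.65% of all genes. The median was then -1.49, beside -0.49 over all genes. A10 was the ranked cell within the range of the other 6 for Hlf and Ifitm1. That these were apart without it is therefore no separate result.

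Transcription factors of the megakaryocyte and red cell lineages had a median log2 fold of -0.22, beside -0.39 over all genes. Of 23 factors past the filter, 1 was apart, beside 0.517% of all genes apart higher and 0.757% lower. Nfe2 (ENSMUSG00000058794, chromosome 15, 103248212 to 103258403), a factor needed to shed platelets, was the one apart, and it was lower. It had 54.5 CPM in A8, 1.52 in B4 and 0 in A10, against 65.2 to 255 (median 138) in the other 6, which made it 7.86-fold lower (95% CI 5.64 to 11.3). Fli1, an ETS factor of megakaryocytes, had 106 CPM in A8, 54.5 in B4 and 69.7 in A10, against 1.52 to 152 (median 24.2). Gata1 was read in A8 and B3 only, at 50 and 119.7 CPM. Lmo2 had 2445 CPM in A8, 4232 in B4 and 4111 in A10, against 1374 to 5569.6 (median 2476). Hhex was highest in A10, at 1405 CPM, with 132 in A8 and 264 in B4.

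Genes of granule secretion and of the cytoskeleton, which platelets use to release their contents and change shape, overlapped between the groups. The secretion list held 0.316 to 0.653% of gene reads in the 3 cells against 0.251 to 0.771% in the other 6. The actin and tubulin list held 0.782 to 1.31% against 0.601 to 1.32%. None of 20 secretion genes and none of 26 actin and tubulin genes past the filter was apart. Their medians were -0.24 and -0.038, beside -0.39 over all genes. With 0.517% of all genes apart higher and 0.757% lower, none of 20 or of 26 is no result about the members. Rab38, a GTPase of lysosome-related organelles, had 836 CPM in A8, 762 in B4 and 3405 in A10, against 3.03 to 1644 (median 564). Ap3b1, a coat subunit for the sorting of granule proteins, had 115 CPM in A8, 409 in B4 and 718 in A10, against 0 to 177 (median 125). In both, A10 was the highest of the 9 cells.

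Genes of DNA synthesis were read at a higher share in the 3 ranked cells than in 5 of the other 6. The S phase list took 0.750% of gene reads in A8, 1.34% in B4 and 0.416% in A10. It took 0.0362 to 0.354% in 5 others, and 1.56% in B9, above all 3. The 27 members past the filter had a median of 0.93, beside -0.39 over all genes. Of these members, 22 had a log2 fold above 0, beside 41.6% of all genes. None was apart, which at the shares of all genes is no result about the members. Mcm3, a subunit of the replicative helicase, had 358 CPM in A8, 576 in B4 and 808 in A10, against 0 to 930.3 (median 69.7) with the highest in B9. Rrm1, a subunit of ribonucleotide reductase, had 9.09 CPM in A8, 673 in B4 and 453 in A10, against 0 to 530.3 (median 0). With B9 left out, 20 members passed the filter and 3 were apart, Mcm3, Mcm7 and Rrm1, all higher, beside 1.01% of all genes. The median was then 2.27, beside -0.26 over all genes. B9 was the cell above all 3 in share, so these values without it are no separate result. With B4 left out the median was -0.79, beside -0.57 over all genes.

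In A10 the S phase reads lay in few genes. Of 34 S phase genes A10 had reads of 8, while A8 had 25 and B4 24. In A10, Pcna, the sliding clamp of the polymerase, had 1768 CPM, Mcm3 808 and Mcm6 745. Mcm5, Mcm2 and Tyms had none there. Mitotic genes were read mainly in B4 among the 3. B4 had 521 CPM of Ccnb1 (cyclin B1), 298 of Mki67 and 109 of Aurkb, with none in A8 or A10. B4 read 5 of 30 genes of the G2/M list, and 25 had no read there.

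Among the genes of antigen presentation, the class I gene H2-D1 (ENSMUSG00000073411, chromosome 17, 35262730 to 35267499) was higher in the 3 cells. It had 1397 CPM in A8, 2286 in B4 and 2323 in A10, against 217 to 1305 (median 661) in the other 6, which made it 2.95-fold higher (95% CI 2.81 to 3.10). H2-D1 has close paralogs, and reads that could be shared with them leave its count uncertain. The groups did not overlap, with A3 at 1305 CPM next below A8. Of the 16 class I genes, all past the filter, this was the one apart, beside 0.517% of all genes apart higher and 0.757% lower. The median of the 16 was 0.82, beside -0.39 over all genes. Without A10 it was 0.25, beside -0.49 over all genes. The share of the whole class I list was 1.49% of gene reads in A8, 1.36% in B4 and 2.75% in A10, against 0.582 to 1.70% (median 1.00%) in the other 6 cells. B2m, the invariant light chain, overlapped, with 6935 CPM in A8, 4449.9 in B4 and 11923 in A10 against 2214 to 9565 (median 4014). Beside the median of -0.39 over all genes, interferon-stimulated genes had a median of -2.35 over 18 genes. Of these, 13 had a log2 fold of at most -1 and 3 of at least 1, beside 39.5% and 22.8% of all genes. None was apart, which at the shares of all genes is no result about the members. Their share overlapped, at 0.0799% of gene reads in A8, 0.143% in B4 and 0.174% in A10, against 0.0621 to 0.314% (median 0.182%) in the other 6 cells. Without A10 the median log2 fold was -4.42, beside -0.49 over all genes. Trim25, an exception, had 1273 CPM in A10 and none in A8 or B4.

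Fech, an enzyme of haem synthesis, overlapped between the groups, with 244 CPM in A8, 0 in B4 and 174 in A10 against 0 to 1024 (median 347). Of 73 nuclear genes of oxidative phosphorylation, 2 were apart, both higher, beside 0.517% of all genes apart higher and 0.757% lower. Ndufa10, a subunit of complex I, had 71.2 CPM in A8, 702 in B4 and 119.7 in A10, against 0 to 53.0 (median 21.2). Atp5b, the beta subunit of ATP synthase, had 2006 CPM in A8, 2818 in B4 and 1144 in A10, against 444 to 1058 (median 658). The median of the 73 was -0.10, beside -0.39 over all genes.

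In 15 further lists no gene was apart, which at the shares of all genes is no result about any of these lists. Of them 3, of mast cells, mature lymphocytes and endothelium, had 1 or 2 members past the filter. In the other 12 the medians were -1.37 for adhesion and homing, -1.56 for genes of aged stem cells, -0.29 for inhibitors of the cell cycle, -1.07 for cytokine receptors, -0.49 for G1 cyclins and their kinases and -1.30 for G2/M. They were 0.037 for glycolysis, -0.30 for immediate early genes, -1.10 for lymphoid priming, -0.72 for neutrophils and monocytes, -0.18 for ribosome biogenesis and -0.17 for TGF-beta signaling. Over all genes the median was -0.39.

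**Figure D4:**
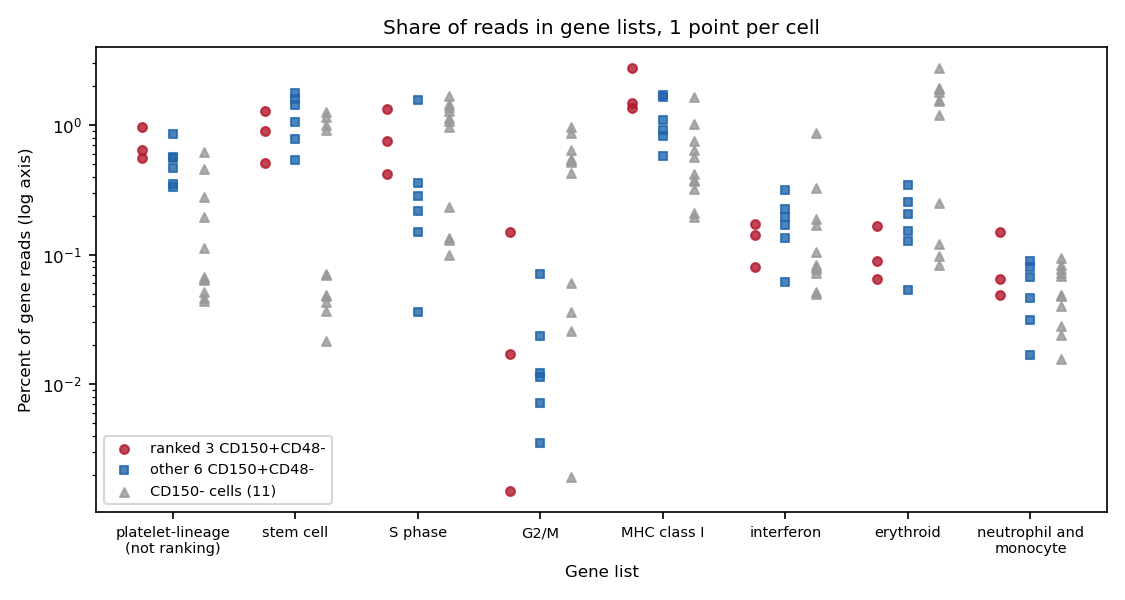
Percent of gene reads (y axis, log scale) in 8 gene lists (x axis) for every cell, with the 3 ranked cells as red circles, the other 6 CD150+CD48- cells as blue squares and the 11 CD150- cells as grey triangles. The 3 ranked cells overlap the other 6 in every list shown, and in the S phase list they lie above 5 of the 6.

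Over all genes, the 43 that were apart in the higher direction held 41 protein-coding genes, and 3 had no read in the other 6 cells. Those 3, Ttc1, Dnajc24 and C9orf72, passed the filter through the ranked cells alone. That they were apart therefore follows from the filter, and their values are a description only. Of the 43, the 12 with the widest gaps are described here, and 3 of the 12 remained with genes read in at least 6 of 9 cells. Ttc1 (ENSMUSG00000041278, chromosome 11, 43729512 to 43748008), a protein with tetratricopeptide repeats, had 90.9 CPM in A8, 269.7 in B4 and 89.4 in A10 and no read in the other 6, and was at least 198-fold higher, a bound from a floor of 3 reads over the 6 cells. Klhl7 (ENSMUSG00000028986, chromosome 5, 24100605 to 24160792), an adaptor of a ubiquitin ligase, had 162 CPM in A8, 90.9 in B4 and 465 in A10, against 0 to 13.6 (median 0). It was 86.2-fold higher (95% CI 47.7 to 174). Selenot (ENSMUSG00000075700, chromosome 3, 58576636 to 58593133), a selenoprotein of the endoplasmic reticulum, had 1142 CPM in A8, 482 in B4 and 1333 in A10, against 0 to 206 (median 31.1). For each of these 3 genes, all 3 ranked cells lay above all 6 others.

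The other 9 were Lrrfip2, Dnajc24, Tmcc1, Ap4s1, C9orf72, Idua, Tsacc, Clcc1 and Cep70. Clcc1, an ion channel of the endoplasmic reticulum, had 324 CPM in A8, 579 in B4 and 232 in A10, against 0 to 106 (median 0). Idua, a lysosomal enzyme, had 241 CPM in A8, 37.9 in B4 and 185 in A10, against 0 to 15.2 (median 0). Dnajc24 and C9orf72 rested largely on 1 or 2 cells. Dnajc24 had 3.03 CPM in A8, 4.55 in B4 and 462 in A10, and C9orf72 had 1.52 CPM in A8, 592 in B4 and 194 in A10, with no read of either in the other 6. In the CD150- cells these 12 genes were each read in 3 to 10 of 11 cells, and the median of Selenot there was 558 CPM.

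Of the 63 genes apart in the lower direction, 58 were protein-coding and 18 had no read in the 3 ranked cells. Those 18 passed the filter through the other 6 cells alone, so their values are a description only. Klf10, Deptor, Slc25a51, Rest, Mplkip, Tmod3, Hddc2 and Tgtp2 are among them. Klf10 (ENSMUSG00000037465, chromosome 15, 38291463 to 38300706), a zinc finger factor induced by TGF-beta, had no read in the 3 and 60.6 to 450.0 (median 138) CPM in the other 6, and was at least 142-fold lower by a floor of 3 reads over the 3 cells. Sp1 (ENSMUSG00000001280, chromosome 15, 102406143 to 102436404), a general transcription factor, had 12.1 CPM in A8, 0 in B4 and 0 in A10, against 200 to 600.0 (median 397). It was 98.8-fold lower (95% CI 50 to 229). Deptor, an inhibitor of the kinase mTOR, had no read in the 3 and 36.4 to 356 (median 196) CPM in the other 6. Slc25a51, the carrier of NAD into mitochondria, also had no read in the 3, against 40.9 to 667 (median 195).

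Among the other 8, Rmnd5a, a ubiquitin ligase subunit, had 0 CPM in A8, 0 in B4 and 1.52 in A10, against 127 to 1030.3 (median 175). Rest, a transcriptional repressor, had no read in the 3 and 16.7 to 474 (median 130.3) CPM in the other 6. Mplkip, Tmod3 and Hddc2 also had none in the 3, and Chd9 and Cstb 1 read each. Tgtp2, an interferon-induced GTPase, had none in the 3 against 36.4 to 548 (median 128), but it has a near-identical copy, Tgtp1, and its count is uncertain. A read of none at this depth does not show absence, since the genes read per cell were between 4758 and 8693. In the CD150- cells Rest was read in 11 of 11 and Klf10 in 9.

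**Figure D5:**
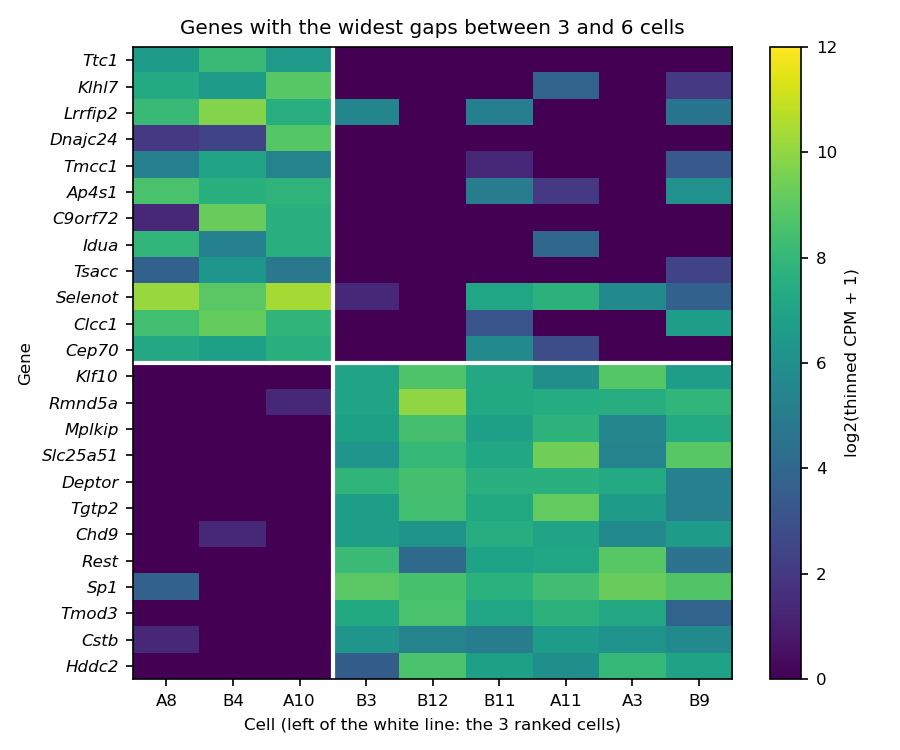
Level of the 12 genes with the widest gap in each direction (rows; higher above the white line, lower below it) in the 9 cells (columns, ordered by the ranking share), as log2(thinned CPM + 1) in color. Ttc1, Dnajc24 and C9orf72 have no read in the other 6 cells, and Klf10, Deptor and Rest have none in the 3 ranked cells.

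The counts of genes apart depended on which cells and which scale were used. Scaled by ERCC reads in place of gene reads, 82 genes (0.986%) were apart higher and 52 (0.625%) lower, so that the higher share of all genes apart went from 40.6% to 61.2%. The median over all genes moved from -0.39 to 0.07. Of the 22 lists with 3 or more members past the filter, the medians of 10 turned from negative to positive, those of cell cycle inhibitors, erythroid genes, G1 cyclins, lymphoid priming, actin and tubulin, lineage factors, oxidative phosphorylation, granule secretion, ribosome biogenesis and TGF-beta. The platelet-lineage, S phase and class I medians stayed positive, at 0.84, 0.61 and 1.20, and the stem cell and interferon medians negative, at -0.57 and -2.01. On that scale 38 of the 43 and 41 of the 63 remained, all 24 named genes among them. Without A10, the cell nearest the border, 269 genes (3.36%) were apart higher and 132 (1.65%) lower. Without A8 the counts were 152 (1.99%) and 200 (2.61%), and without B4 194 (2.42%) and 103 (1.28%). Leaving out 1 of the other 6 gave 58 to 76 higher and 69 to 126 lower, with 66 (0.829%) and 126 (1.58%) without B3 and 76 (1.01%) and 86 (1.15%) without B9. With fewer cells on a side, non-overlap is reached more often, which these counts include. Within the cells coded A (A8 and A10 against A3 and A11) the counts were 989 (16.2%) and 776 (12.7%), and within those coded B (B4 against B3, B9, B11 and B12) 1260 (15.9%) and 1052 (13.3%). The labels do not say what the letters mark.

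By rank correlation the ranked cells were no closer to each other than other pairs were. Spearman's rho between 2 cells, across all genes past the filter, was 0.184 to 0.274 (median 0.223) for the 3 pairs of ranked cells. It was 0.182 to 0.379 (median 0.237) for the 18 pairs of a ranked and another cell, and 0.209 to 0.393 (median 0.254) for the 15 pairs of the other 6. These are descriptions across genes, which are not independent.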

How the data were processed

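Each cell has 1 deposited file of raw read counts per gene. HTSeq, R 3.0.2 and the build GRCm38 are named in the submitters' processing notes. For the aligner and the annotation: not given in the sources used here. A deposited table of the whole series held the same counts for 18464 genes with 51 ERCC rows. Summary rows (5 per file) and ERCC rows were kept out of totals.

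The split is of measured values, and the members and lists were chosen with earlier results of these data known. Cells were thinned, without replacement, to a common 660007 gene reads. Genes needed 10 thinned reads over the 9 cells and a read in at least 3, and the ranking genes were left out. Shares are of raw reads, and levels of thinned reads as CPM. Of 38561 identifiers 36639 had a symbol in a table of gene names, and gene coordinates are from GENCODE M21 on GRCm38. Named are the 12 genes with the widest gap in each direction, passing over predicted genes, up to 4 members of each of 25 lists (the 2 highest and 2 lowest log2 folds), the gate genes, and list members chosen after their values were seen. Quartz-Seq had no molecular identifiers here, so reads are PCR copies. Some genes of the lists are not reported here. Doublets were not assessed, and reads with several alignments were not counted. The steps were tested on simulated data. Alternatives covered thinning, filters, pseudocount, scaling, the ranking and the cells used. Python 3.11.15, pandas 2.3.3 and numpy 2.4.6 were used.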

Additional observations from a re-analysis of the deposited data

Results flagged for a closer look

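In 3 of 33 values checked over the 9 CD150+CD48- cells, the highest cell stood far from the next. Chance flags about 1 in 20 groups. B4, one of the ranked cells, had 0.151% of gene reads in the G2/M list, with 0.0703% in the next cell. A11, which is not ranked, had 0.738% in the list of aged stem cell genes, with 0.256% in the next, and 0.172% in the mast cell and basophil list, with 0.0732% in the next.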

How the results depend on the processing

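The 3 cells were the same with thinned reads, and 2 of the 3 with equal weights or without Vwf or Rab27b. In place of 43 genes higher and 63 lower, the counts were 24 higher (0.572%) with genes read in at least 6 of 9 cells, 82 higher with ERCC scaling, 989 and 776 with A cells alone and 1260 and 1052 with B cells alone, and 58 to 269 and 69 to 200 with 1 cell left out. The first of these tested fewer genes, and the last 3 used fewer cells. The part of cell number was not tested. Raw reads without thinning, a second thinning, no gene filter, a pseudocount of 10 CPM and means of log2 values gave 40 to 58 higher and 62 to 82 lower. Of the 12 named higher genes 11 stayed apart with raw reads, 11 with the second thinning, 9 without A10, 9 without A8, 9 without B4, 8 with B cells alone and 3 with the 6-cell filter. Those lost with fewer cells or with the 6-cell filter no longer passed the gene filter, and their groups did not overlap. All 12 named lower genes stayed apart under each alternative. A gene apart lower is read in all 6 other cells, so it passes the 6-cell filter by its definition. Leaving out cells cannot make groups that are apart overlap. The contrast between the higher and lower genes under these alternatives is therefore no result.

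With B cells alone, where B4 stands for the ranked cells, list medians were -4.58 for adhesion and homing, -4.49 for aged stem cells, -4.90 for cell cycle inhibitors, -5.00 for cytokine receptors, -3.79 for erythroid genes, -3.69 for G1 cyclins, -3.40 for G2/M, -2.67 for glycolysis, -3.15 for stem cells, -4.90 for immediate early genes, -6.39 for interferon, -1.54 for lineage factors, -2.19 for neutrophils and monocytes, -0.97 for the platelet lineage, -5.10 for granule secretion, -3.66 for ribosome biogenesis and -4.05 for TGF-beta. Over all genes the median with B cells alone was -3.67, and these list medians are to be read beside it. With A cells alone the list medians were -0.42 for adhesion and homing, -1.69 for cell cycle inhibitors, 0.83 for G2/M and -0.079 for lymphoid priming, beside 0.057 over all genes. With the 6-cell filter the list medians were -0.30 for adhesion and homing, 0.90 for G2/M and 1.17 for neutrophils and monocytes, beside -0.12 over all genes. That of G2/M was -3.06 with the second thinning and -0.14 with 10 CPM added, and that of lymphoid priming 0.67 with means of log2 values and 0.25 with ERCC scaling. With 1 cell left out, the medians ranged from -2.86 to -0.72 for adhesion and homing, -3.83 to -1.07 for aged stem cells, -1.27 to -0.057 for cell cycle inhibitors, -2.65 to -0.42 for cytokine receptors, -2.22 to 0.42 for erythroid genes, -2.15 to -0.38 for G1 cyclins, -3.92 to 2.84 for G2/M, -3.76 to 0.27 for immediate early genes, -4.42 to -1.55 for interferon, -1.31 to -0.017 for lymphoid priming, -2.71 to -0.21 for neutrophils and monocytes, -0.84 to 0.51 for the platelet lineage, -2.10 to -0.21 for granule secretion, -2.97 to 0.20 for ribosome biogenesis and -2.16 to 0.34 for TGF-beta. Over all genes the median with 1 cell left out ranged from -1.21 without A8 to -0.23 without B11. The medians of class I, S phase, oxidative phosphorylation and actin and tubulin genes moved by less than the spread between cells under every alternative, although that of S phase was -0.79 without B4.

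Of the 116 named genes, 26 changed sign under some alternative. Of these, 9 had a log2 fold under 1 in size, and the other 17 are given here. With 1 cell left out, log2 folds ranged from -6.33 to 2.79 for Nupr1, -0.83 to 3.84 for Tek, -3.33 to 4.08 for Aqp1, -4.28 to 3.91 for Ccnc, -2.84 to 3.89 for Ctnnal1, -1.62 to 4.56 for Ifit2, -6.26 to 3.05 for Trim25, -0.12 to 1.61 for Il12a, -4.43 to 3.89 for Was, -1.86 to 3.08 for Myh9, -2.72 to 0.31 for Pdia3 and -2.77 to 5.09 for Polr1a. They were -1.98 for Tek, -0.62 for Pfkp, -2.81 for Ctnnal1, -2.82 for Ifit2, -0.079 for Il12a, -2.08 for Myh9 and 0.13 for Itga6 with A cells alone, -5.36 for Nupr1, -6.30 for Rbl1, -3.87 for Aqp1, -6.35 for Trim25, -2.97 for Lax1, -0.039 for Rab38 and -3.28 for Polr1a with B cells alone, and -0.86 for Nupr1, -2.33 for Trim25 and 1.23 for Pdia3 with means of log2 values. The cause was not tested. No paired analysis was possible because the split is within 1 group of cells and the 3 and the 6 share no replicate number. Depth limits the low end: at 660007 gene reads, 1 read is 1.52 CPM, and a gene with no read in the 3 cells may lie below 1.52 CPM.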
